A study of Mus musculus with 36 samples.

Results

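The 10 genes described here are direct targets of the transcription factor p53: Cdkn1a, Mdm2, Bax, Tnfrsf10b, Ccng1, Trp53inp1, Phlda3, Sesn1, Bbc3 and Pmaip1. They were chosen by name, with earlier results of these data known, so the counts below are a description of a chosen set. All 10 were present among the 136300 genes counted in mouse liver and among the 32266 genes of the mouse embryonic fibroblast (MEF) table. All 10 passed the filter on low counts in liver, and 9 of 10 passed the filter on low values in MEFs, where Pmaip1 did not. The study removed Vps15, the regulatory subunit of the class 3 PI3-kinase encoded by Pik3r4, and measured polyadenylated RNA under fasting and under methionine shortage.

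The liver samples came from 4-week-old male mice killed at ZT14, that is, by zeitgeber time. Mice were wild type (WT) or Ttr CRE+, Vps15f/f, called Vps15LKO in the sample titles, so that a transthyretin promoter drove Cre and both Vps15 alleles were floxed. Each genotype was fed ad libitum or fasted for 24 h, with 3 libraries named a, b and c in each of the 4 groups. The labels name hepatocytes as the cell type, but the material was powdered whole liver, which holds other cells too. The MEFs were a Vps15f/f line infected with an adenovirus carrying GFP (the WT arm) or CRE (the Vps15KO arm). Each arm had a basal group in high-glucose medium without serum, a group deprived of methionine for 4 h, and groups given methionine back for 1 h or 4 h after deprivation, with 3 libraries in each of the 8 groups. CRE expression and loss of Vps15 cannot be told apart in the MEFs, because all CRE samples carry both. The sources used here do not say whether MEF libraries came from separate cultures, so their p-values measure the spread between libraries, which may be technical.

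p53 is held at a low level in unstressed cells by MDM2, a ubiquitin ligase that marks it for degradation, and by the related protein MDM4. Damage to DNA, stalled ribosomes and other stresses release p53, which binds response elements near its targets and raises their transcription. Mdm2 is itself a target, which closes a feedback loop. CDKN1A stops the cell cycle by blocking cyclin-dependent kinases, and BAX, PUMA (Bbc3), NOXA (Pmaip1) and the death receptor TNFRSF10B act in apoptosis. In liver, p53 targets are known to respond to DNA damage and to changes in nutrient supply, and several of them also answer to other transcription factors.

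The p53 response element was searched because it is the sequence through which p53 is known to act on these genes. The search covered both strands of 300-base windows, running from 250 bases before to 50 bases after each RefSeq transcription start (GRCm38.p6), for 2 abutting decamers of the p53 response element, counting the bases that depart from it. Windows were available for 7 of the 10 genes, 11 windows in all. At most 1 departure was found in 29 of 32851 windows (0.0883%), among them a window of Cdkn1a and the window of Ccng1. The 250 bases before each of these starts are printed 5′ to 3′ on the gene's strand, with the 20-base match in capitals. The Cdkn1a window is chr17:29090729-29091028, plus strand, and its match lies at chr17:29090928-29090947, 51 to 32 bases before the upstream start and 2841 bases before the downstream start. The Ccng1 window is chr11:40755237-40755536, minus strand, and its match lies at chr11:40755462-40755481, 195 to 176 bases before the start.
Cdkn1a: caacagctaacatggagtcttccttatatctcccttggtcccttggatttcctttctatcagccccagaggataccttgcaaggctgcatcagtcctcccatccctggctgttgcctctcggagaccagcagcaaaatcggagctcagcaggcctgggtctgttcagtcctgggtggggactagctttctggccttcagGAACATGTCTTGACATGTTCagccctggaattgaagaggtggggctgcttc
Ccng1: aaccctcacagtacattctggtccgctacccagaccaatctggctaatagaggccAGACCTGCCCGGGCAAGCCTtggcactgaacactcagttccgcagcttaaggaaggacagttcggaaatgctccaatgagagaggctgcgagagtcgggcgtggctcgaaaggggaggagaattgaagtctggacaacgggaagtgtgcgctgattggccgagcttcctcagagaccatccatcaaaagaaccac

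At most 3 departures were found in 2067 windows (6.29%), and Bbc3, Bax and Sesn1 had such a match. These elements are shown because they are within that limit and lie before the transcription start, whatever the RNA levels of the genes. The Bbc3 match lies at chr7:16309486-16309505 (plus strand), the Bax match at chr7:45467090-45467109 (minus strand) and the Sesn1 match at chr10:41887266-41887285 (plus strand). Their capitals mark the whole 20-base match.
Bbc3: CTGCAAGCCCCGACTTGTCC
Bax: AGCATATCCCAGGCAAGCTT
Sesn1: AAGCTTGTTTTTGCTGGCCT
A match is a description of the sequence and does not show that p53 was bound there. The Mdm2 and Phlda3 windows held no match with fewer than 5 departures, which says only that these letters are not in these windows.

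The genes lie at these positions in the GENCODE M21 annotation of GRCm38 (mm10). The arrest and feedback genes are Cdkn1a (ENSMUSG00000023067) at chr17:29090976-29100727, Mdm2 (ENSMUSG00000020184) at chr10:117688875-117710758 and Ccng1 (ENSMUSG00000020326) at chr11:40748552-40755311. The death genes are Bax (ENSMUSG00000003873) at chr7:45461697-45466898, Bbc3 (ENSMUSG00000002083) at chr7:16308393-16318205 and Tnfrsf10b (ENSMUSG00000022074) at chr14:69767472-69784411. Of the remaining targets, Trp53inp1 (ENSMUSG00000028211) lies at chr4:11156431-11174379, Phlda3 (ENSMUSG00000041801) at chr1:135766119-135769136 and Sesn1 (ENSMUSG00000038332) at chr10:41809935-41908424. The position of Pmaip1 is not given here.

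Liver libraries held 9110836 to 12870944 counts, and levels are given as CPM, that is, counts scaled to the library's total over tested genes after adjustment by its TMM factor. Pik3r4, which encodes Vps15, was at 21.2 ± 3.14 CPM (mean ± SD, n = 3) in WT fed liver and 24.0 ± 1.63 CPM in Vps15LKO fed liver. It did not pass the test in fed (adjusted p = 0.312) or fasted liver (adjusted p = 0.663), and whole-gene counts cannot check a deletion of part of a gene. Mitochondrially encoded genes took 3.29 to 3.65% of counts in the 6 WT libraries and 2.01 to 2.65% in the 6 Vps15LKO libraries. All 12 hepatocyte markers were detected in every group, and the sum of their levels was 39235 to 41539 CPM in WT fed libraries, 48680 to 50233 CPM in WT fasted, 16480 to 19044 CPM in Vps15LKO fed and 17015 to 20046 CPM in Vps15LKO fasted.

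In fed liver, 9 of the 10 p53 targets were higher in Vps15LKO than in WT and none was lower, by edgeR's quasi-likelihood test with Benjamini-Hochberg adjustment over 23875 genes. Sesn1 alone did not pass, and with library totals as the only scaling it did. In the same comparison 46.3% of all tested genes changed, 23.4% higher and 23% lower. The median log2 difference of the 10 targets was 1.39, against 0.01 over all tested genes. Tnfrsf10b and Phlda3 showed the largest differences of the 10, and Mdm2 and Cdkn1a the smallest of the 9 that passed.

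Tnfrsf10b, which encodes a death receptor for the ligand TRAIL, had 10, 8 and 3 counts in the 3 WT fed libraries and 441, 359 and 328 counts in the 3 Vps15LKO fed libraries. As levels this was 0.739 ± 0.384 CPM against 25.2 ± 4.45 CPM (n = 3 each), with no overlap between the groups. The log2 difference was 5.08 ± 0.33 (SE; adjusted p = 2.32e-08), a 33.8-fold difference that rests on low WT counts. Phlda3, a pleckstrin-homology protein that opposes AKT at the membrane, had 3.12, 3.05 and 3.26 CPM in WT fed libraries and 34.2, 28.3 and 27.5 CPM in Vps15LKO fed libraries. The difference was 9.53-fold, a log2 difference of 3.25 ± 0.24 (adjusted p = 6.57e-08), and every Vps15LKO library lay far above every WT library.

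Among the BCL2-family targets, Bax, whose product permeabilises the outer mitochondrial membrane, had 18.5, 15.4 and 13.7 CPM in WT fed libraries and 40.6, 49.1 and 45.4 CPM in Vps15LKO fed libraries (log2 difference 1.50 ± 0.13, adjusted p = 2.69e-07). Bbc3, which encodes the BH3-only protein PUMA, had 10.3, 7.96 and 6.52 CPM against 25.5, 21.1 and 21.0 CPM (1.45 ± 0.16, adjusted p = 3.96e-06). Pmaip1, which encodes the BH3-only protein NOXA, had 19, 17 and 19 counts against 76, 81 and 53 counts, or 1.92 ± 0.0614 against 4.68 ± 0.976 CPM (1.28 ± 0.29, adjusted p = 0.0019). In all 3 genes the lowest Vps15LKO library was above the highest WT library.

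The feedback targets rose together with the death genes. Mdm2 had 31.0, 29.2 and 31.9 CPM in WT fed libraries and 63.7, 65.4 and 55.7 CPM in Vps15LKO fed libraries, a log2 difference of 1.00 ± 0.12 (adjusted p = 7.54e-06). Ccng1, which encodes the p53-induced cyclin G1, had 59.3, 55.2 and 54.8 CPM against 158, 138 and 130 CPM (1.33 ± 0.12, adjusted p = 6.29e-07). Neither gene's groups overlapped, and both had small spread in WT. Trp53 itself, at 49.1 ± 2.72 CPM in WT fed liver and 71.9 ± 1.14 CPM in Vps15LKO fed liver, was higher by 0.55 ± 0.14 on the log2 scale (adjusted p = 0.00373). Mdm4, the second brake on p53, went from 27.3 ± 0.803 to 20.4 ± 1.33 CPM and was lower by this test (log2 difference -0.42 ± 0.12, adjusted p = 0.00828).

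Cdkn1a and Trp53inp1 varied widely between WT fed libraries. Cdkn1a had 37.8, 177 and 76.3 CPM in WT fed libraries a, b and c, and 226, 228 and 196 CPM in Vps15LKO fed libraries. Its log2 difference was 1.16 ± 0.36 (adjusted p = 0.0151), and without WT fed library c it was 1.01 with an adjusted p of 0.0643. Trp53inp1, which encodes a stress-induced protein that assists p53 and takes part in autophagy, had 34.1, 72.7 and 26.8 CPM against 179, 207 and 165 CPM (2.05 ± 0.30, adjusted p = 5.18e-05). Library b was the highest WT fed library for both genes. Sesn1, a stress-induced inhibitor of the growth kinase complex mTORC1, had 10.2, 12.5 and 12.7 CPM against 13.8, 13.0 and 13.1 CPM, a difference of 0.17 ± 0.14 that did not pass (adjusted p = 0.331).

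**Figure D1:**
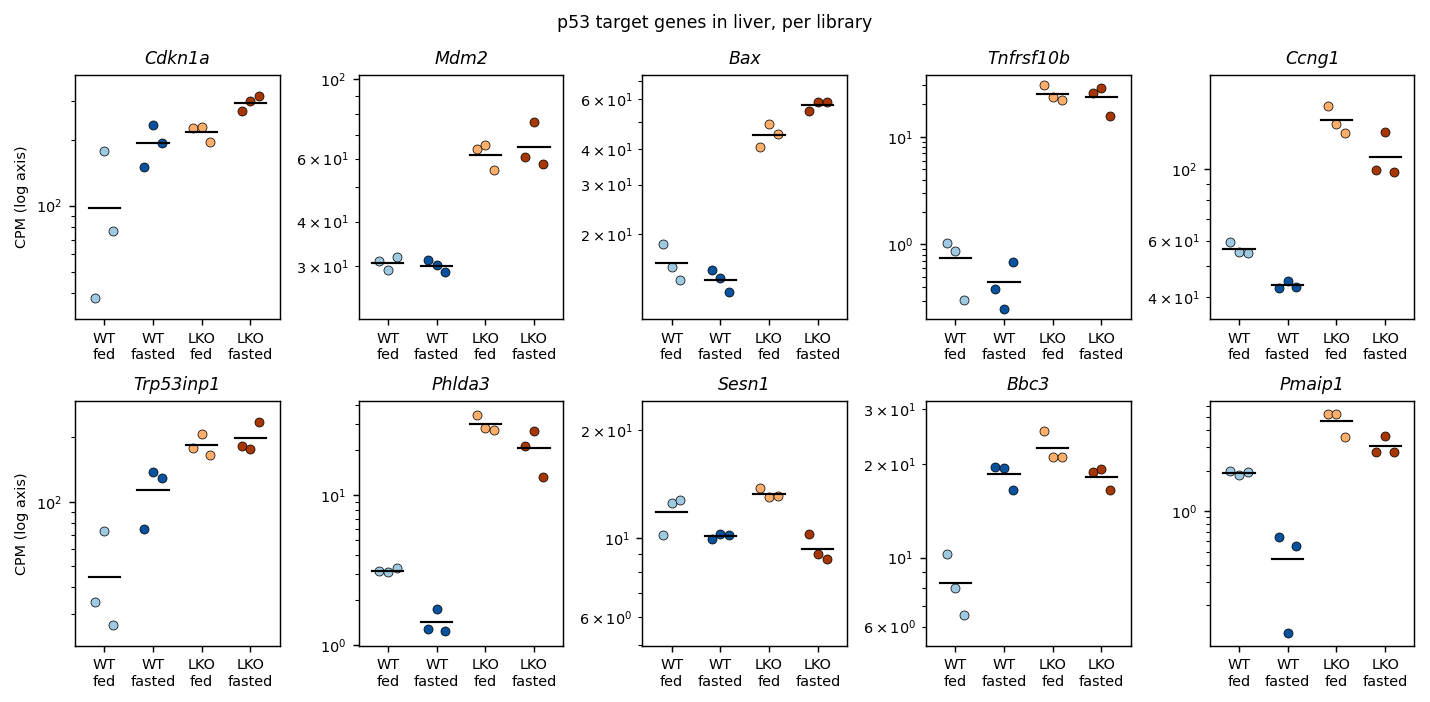
Level of each of the 10 p53 targets in the 12 liver libraries (LKO: Vps15LKO), in CPM on a log axis. Each point is a library and the bars mark the group mean of 3 libraries. Tnfrsf10b and Phlda3 separate the genotypes by the widest gap, Sesn1 barely separates them, and Cdkn1a scatters widely in WT fed liver.

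In fasted liver, 7 of the 10 targets were higher in Vps15LKO than in WT and none was lower, where 56.2% of all tested genes changed, 28.2% higher and 28.1% lower. The median log2 difference of the 10 was 1.22, against 0.01 over all tested genes. The 7 were Mdm2, Bax, Tnfrsf10b, Ccng1, Trp53inp1, Phlda3 and Pmaip1. Cdkn1a, Sesn1 and Bbc3 did not pass.

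The death genes Tnfrsf10b, Pmaip1 and Bax showed wide gaps after fasting. Tnfrsf10b had 3, 2 and 5 counts in WT fasted libraries and 352, 420 and 207 counts in Vps15LKO fasted libraries, a log2 difference of 5.71 ± 0.38 (adjusted p = 1.46e-08). Pmaip1 had 5, 1 and 4 counts against 38, 53 and 36 counts (2.77 ± 0.40, adjusted p = 2.76e-05). Fitted fold changes at such low WT counts depend on the small count that edgeR adds, so the counts are the safer description. Bax had 14.9, 14 and 12.5 CPM against 54.7, 58.8 and 58.8 CPM (2.05 ± 0.13, adjusted p = 1.16e-08). Bbc3 values overlapped between the genotypes after fasting, with 19.6, 19.4 and 16.5 CPM in WT and 18.8, 19.3 and 16.4 CPM in Vps15LKO, a difference of -0.03 ± 0.16 that did not pass (adjusted p = 0.893).

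Of the remaining targets, Phlda3 had 10, 14 and 9 counts in WT fasted libraries and 21.5, 27.1 and 13.2 CPM in Vps15LKO fasted libraries, against 1.43 ± 0.284 CPM in WT (log2 difference 3.84 ± 0.28, adjusted p = 3.23e-08). Mdm2 had 31.3, 30.2 and 28.9 CPM against 60.6, 76.1 and 57.9 CPM (1.11 ± 0.12, adjusted p = 1.87e-06). Ccng1 had 42.7, 44.8 and 43.0 CPM against 99.5, 130 and 98.1 CPM (1.33 ± 0.13, adjusted p = 3.83e-07). In these 3 genes every Vps15LKO library was above every WT library. Sesn1 had 9.92, 10.3 and 10.2 CPM against 10.3, 8.99 and 8.74 CPM, and its groups overlapped (-0.12 ± 0.14, adjusted p = 0.505).

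Cdkn1a had 149, 234 and 193 CPM in WT fasted libraries and 269, 299 and 317 CPM in Vps15LKO fasted libraries. The libraries did not overlap, yet the difference of 0.62 ± 0.35 did not pass in the fit over all 4 groups (adjusted p = 0.151). It passed when fitted on these 2 groups alone (0.63, adjusted p = 0.00486), without the filter on low counts (0.74, adjusted p = 1.07e-06) and with library totals as the only scaling (1.13, adjusted p = 0.0127). Trp53inp1 had 74.9, 138 and 129 CPM against 182, 176 and 235 CPM (0.80 ± 0.29, adjusted p = 0.0281). That call was lost without WT fasted library a (0.60, adjusted p = 0.108), without Vps15LKO fasted library c (0.66, adjusted p = 0.102) and with DESeq2 (0.84, adjusted p = 0.0725). Library totals as the only scaling shifted the all-gene median by 0.52 and gave 10 of 10 targets higher. Sesn1 was then at 0.40 (adjusted p = 0.0272) and Bbc3 at 0.49 (adjusted p = 0.0148). The share of all genes higher under that scaling is not given here, so this count cannot be set against the share above. The further p53 targets described below also went from 22 to 27 higher under it. Trp53 was again higher in Vps15LKO (0.49 ± 0.14, adjusted p = 0.00691), although its libraries overlapped, and Mdm4 was lower (-0.87 ± 0.12, adjusted p = 1.63e-05).

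**Figure D2:**
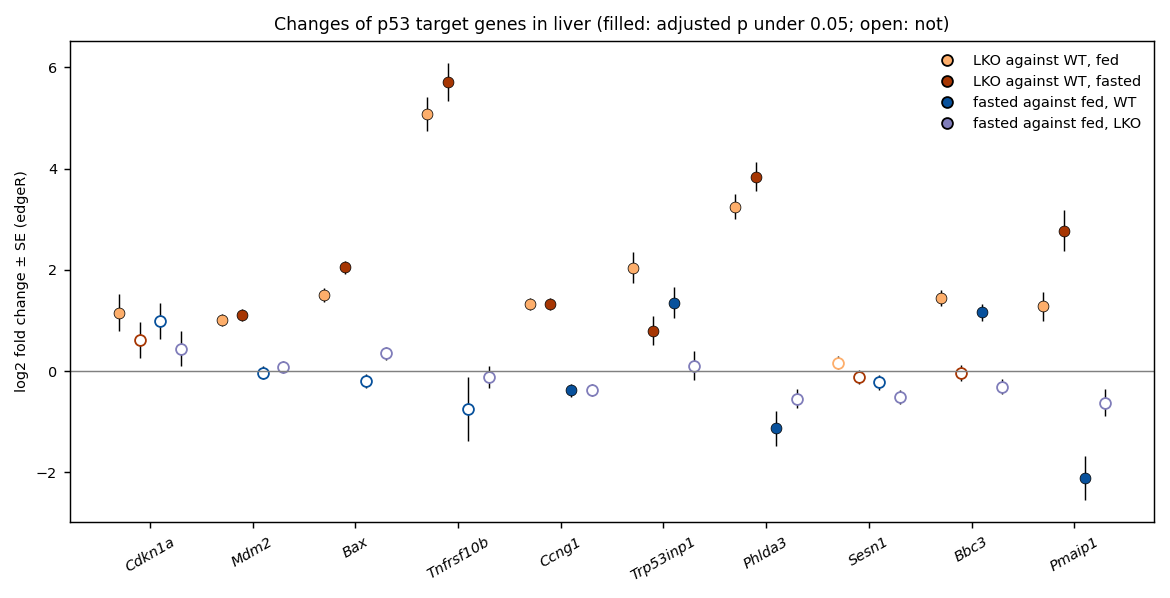
Log2 difference (vertical axis) of each p53 target in the 4 liver comparisons (LKO: Vps15LKO), with error bars of 1 SE; filled points passed at an adjusted p of 0.05. Tnfrsf10b and Phlda3 lie highest in both comparisons of Vps15LKO with WT, and all points for fasting in Vps15LKO are open.

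Within liver, levels per kilobase of merged exons (CPM per kb) ordered the targets differently in the 2 genotypes. In WT fed liver the order of group means ran from Cdkn1a at 27.3, Ccng1 at 16.1 and Bax at 10.1 CPM per kb. At its end were Pmaip1 at 0.703 and Tnfrsf10b at 0.136 CPM per kb. Cdkn1a did not lead in every library. In WT fed library a it had 37.8 CPM over 3553 exon bases, against 59.3 CPM over 3512 for Ccng1. In Vps15LKO fed liver Cdkn1a was at 60.9, Ccng1 at 40.4, Bax at 28.6, Trp53inp1 at 28.4 and Phlda3 at 19.3 CPM per kb. Phlda3 had been at 2.02 CPM per kb in WT fed liver. Tnfrsf10b, at 4.62 CPM per kb, remained among the less abundant targets even in Vps15LKO, so the widest fold differences were in genes with little RNA in WT.

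The other genes of the pathway were read from lists. Of 36 further p53 targets, 35 could be tested, and Rprm was not detected in any group. In fed liver 22 were higher and 5 lower in Vps15LKO, with a median log2 difference of 0.92, or 26 higher and 1 lower with library totals as the only scaling, and the 5 lower became 2 or 3 without WT fed library a, Vps15LKO fed library a or Vps15LKO fed library c. In fasted liver 22 were higher and 6 lower, with a median of 1.26. The smallest adjusted p-values in fed liver belonged to Btg2, an antiproliferative gene (2.62 ± 0.22), Psrc1, which encodes a spindle protein (5.83 ± 0.50), and Sesn2, a relative of Sesn1 (1.62 ± 0.16). In fasted liver they belonged to Dcxr, which encodes a sugar reductase and was lower (-2.36 ± 0.19), Gdf15, which encodes a stress hormone (2.95 ± 0.24), and Zmat3, an RNA-binding p53 target (2.07 ± 0.17).

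**Figure D3:**
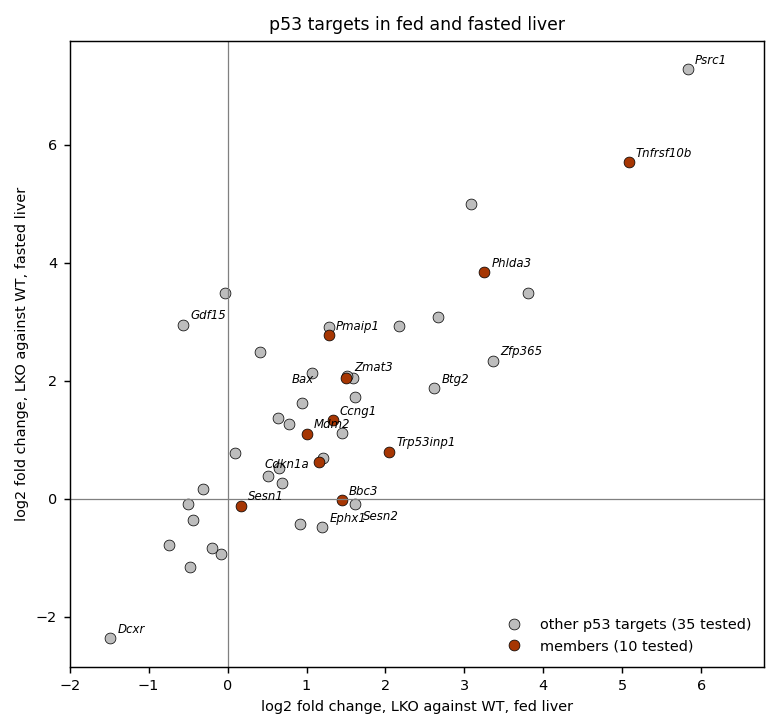
Log2 difference between Vps15LKO and WT in fed liver (horizontal) and fasted liver (vertical) for the 10 p53 targets (dark) and 35 further targets (grey), with each point a gene and LKO standing for Vps15LKO. Tnfrsf10b (5.08 and 5.71) and Psrc1 lie at the upper right, Bbc3 lies on the horizontal line, and Gdf15 is high on the vertical axis only.

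Of 18 genes for p53 and its regulators, 15 were tested, with 4 higher and 2 lower in Vps15LKO fed liver and 3 higher and 2 lower in fasted liver. These counts were unstable: with library totals as the only scaling they were 10 higher and 1 lower, and 12 higher and 1 lower. In fed liver the 4 became 2 without any of WT fed libraries a, b and c or Vps15LKO fed libraries b and c, and in fasted liver the 3 became 5 without WT fasted library b. Cop1, a second ubiquitin ligase for p53, was lower by 0.75 and 0.64 on the log2 scale, and Rpl5, a ribosomal protein that can bind MDM2, was higher by 0.48 and 0.42. The BCL2 family outside the 10 targets had 8 of 11 tested genes higher in fed liver, and 6 higher and 1 lower in fasted liver (10 higher with library totals as the only scaling). Among them, the BH3-only gene Bcl2l11 was higher by 2.19 and 1.66, and the survival gene Bcl2l1, which encodes BCL-XL, was higher by 1.22 and 1.61. Killers and protectors of this family were thus both among the genes that were higher.

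The cell cycle genes differed too. Of 15 tested genes of the G1 phase (inhibitors of cyclin-dependent kinases, G1 cyclins, their kinases, Rb1 and E2f1), 6 were higher and 2 lower in Vps15LKO fed liver, and 6 higher and 3 lower in fasted liver. With library totals as the only scaling, the fasted count was 11 higher and 1 lower, and the 2 lower in fed liver became 1 without WT fed library a or b or Vps15LKO fed library b. The inhibitor Cdkn2b was higher by 3.40 and 4.92 on the log2 scale and the cyclin Ccne1 by 1.92 and 4.10. Of 16 mitotic genes, 15 were higher and none lower in each state. Their summed level was 17.3 to 31.8 CPM in WT fed, 8.63 to 9.90 CPM in WT fasted (with Bub1 at 0), 72.2 to 114 CPM in Vps15LKO fed and 42.2 to 57.0 CPM in Vps15LKO fasted libraries. RNA of the cell cycle inhibitor Cdkn1a and RNA of mitotic genes were therefore both higher in Vps15LKO fed liver.

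Markers of other cells moved with genotype as well, so these values stand beside every difference between Vps15LKO and WT. All 12 macrophage markers were detected in each group, 10 were higher in Vps15LKO fed and 12 in fasted liver, and their sum was 1516 to 1990 CPM in WT fed, 500 to 694 CPM in WT fasted, 2664 to 3023 CPM in Vps15LKO fed and 2449 to 2775 CPM in Vps15LKO fasted libraries. The 12 hepatocyte markers went the other way, with 11 lower in fed and 12 lower in fasted liver. Of 8 tested cholangiocyte markers 3 were higher in fed (5 with library totals as the only scaling) and 6 in fasted liver, with sums of 94.9 to 104 CPM in WT fed, 79.9 to 97.3 CPM in WT fasted, 199 to 268 CPM in Vps15LKO fed and 233 to 337 CPM in Vps15LKO fasted libraries. Of 10 stellate cell markers 7 were higher in each state, and sums were 529 to 560 CPM in WT fed, 405 to 444 CPM in WT fasted, 665 to 892 CPM in Vps15LKO fed and 622 to 674 CPM in Vps15LKO fasted libraries. Neutrophil markers summed to 15.6 to 24.9 CPM in WT fed (Ly6g at 0), 4.12 to 5.91 CPM in WT fasted (Ly6g and Camp at 0), 40.1 to 44.5 CPM in Vps15LKO fed and 22.1 to 34.2 CPM in Vps15LKO fasted libraries. Of 9 tested fibroblast markers 7 were higher and 1 lower in each state; Col1a1, which encodes a collagen chain, was higher by 1.76 in fed and 4.33 in fasted liver on the log2 scale, and Fn1, which hepatocytes also express, was lower. Their sum went the other way, at 2414 to 3045 CPM in WT fed, 2033 to 2449 CPM in WT fasted (S100a4 at 0), 1413 to 2083 CPM in Vps15LKO fed and 1259 to 1350 CPM in Vps15LKO fasted libraries. Of 10 endothelial markers 3 were higher and 2 lower in each state. With library totals as the only scaling they were 6 higher and 1 lower in fed and 8 and 1 in fasted liver, and the 3 higher in fed liver became 1 without WT fed library a or Vps15LKO fed library a or c. Their sums were 720 to 874, 587 to 695, 826 to 951 and 830 to 918 CPM in the same order. Of 8 tested lymphocyte markers 3 were higher in fasted liver (7 with library totals as the only scaling) and 1 was lower in fed liver (none without WT fed library a or b or Vps15LKO fed library a or c), with sums of 18.5 to 21.0, 9.07 to 11.2, 15.0 to 18.8 and 12.2 to 22.7 CPM. The part of these cells in the p53 target levels was not tested, and in whole liver fewer cells of a type and less RNA per cell cannot be told apart.

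Genes of the ATF4 and CHOP stress response, which can also raise some of these targets, were 9 higher and 2 lower of 12 in Vps15LKO fed liver and 9 higher and 1 lower in fasted liver. Their summed level did not follow that count, at 435 to 502 CPM in WT fed, 608 to 721 CPM in WT fasted, 340 to 380 CPM in Vps15LKO fed and 387 to 558 CPM in Vps15LKO fasted libraries. Psat1, an enzyme of serine synthesis, was higher by 3.72 in fed and 5.71 in fasted liver. Their part in the p53 target levels was not tested.

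Fasting WT mice changed 5 of the 10 targets, 2 higher and 3 lower, where 26.3% of all tested genes changed, 12.4% higher and 14% lower. Bbc3 rose from 8.25 ± 1.90 to 18.5 ± 1.74 CPM, with no overlap between libraries (log2 change 1.17 ± 0.17, adjusted p = 0.00013). Trp53inp1 rose from 44.5 ± 24.7 to 114 ± 34.0 CPM (1.36 ± 0.30, adjusted p = 0.00351). Pmaip1 fell from 19, 17 and 19 counts to 5, 1 and 4 counts (-2.11 ± 0.43, adjusted p = 0.00214), and Phlda3 from 30, 28 and 32 counts to 10, 14 and 9 counts (-1.13 ± 0.34, adjusted p = 0.0244). The BH3-only genes Bbc3 and Pmaip1 thus changed in opposite directions in fasting WT liver. The count of 5 became 3 without WT fed library c, WT fasted library a or WT fasted library c.

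Smaller changes of fasting in WT liver were less stable. Ccng1 fell from 56.4 ± 2.52 to 43.5 ± 1.17 CPM with an adjusted p of 0.0396, but the call was lost whichever of the 6 libraries was left out (adjusted p 0.0600 to 0.108). The Phlda3 call was lost in 4 of 6 such fits, without WT fed library b (adjusted p = 0.0514) or c (0.0587) and without WT fasted library a (0.0815) or c (0.0778). Cdkn1a, at 97.1 ± 72.0 CPM fed and 192 ± 42.5 CPM fasted, did not pass (0.99 ± 0.36, adjusted p = 0.0537). Without WT fed library b, the highest of its group, its change was 1.75 with an adjusted p of 0.000219, and it also passed without the filter on low counts (0.90, adjusted p = 5.86e-09) and over Ensembl identifiers only (1.02, adjusted p = 0.0488). Mdm2, Bax, Tnfrsf10b and Sesn1 did not pass, with adjusted p from 0.281 to 0.908 (Sesn1 passed with library totals as the only scaling, at -0.41, adjusted p = 0.0483), and neither did Trp53 (adjusted p = 0.848). All 12 macrophage markers also fell on fasting in WT liver, as did 6 of 7 tested neutrophil markers (3 of them without WT fed library b, WT fasted library b or WT fasted library c). Their part in the target changes was not tested.

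Of the 35 further targets tested, 6 rose and 10 fell on fasting in WT liver. The smallest adjusted p-values were those of Gdf15, which fell (-3.16 ± 0.24), Sesn2, which rose (1.75 ± 0.16), and Ephx1, a detoxifying epoxide hydrolase, which rose (1.52 ± 0.15). No mitotic gene rose and 6 of 16 fell, or 3 without WT fed library b.

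Fasting Vps15LKO mice changed none of the 10 targets by edgeR's quasi-likelihood test, where 1.39% of all tested genes changed, 0.792% higher and 0.599% lower. At an unadjusted p under 0.05, 1 target was higher and 4 were lower by the same test. The share of all genes at that threshold was not taken, so this count cannot be set against the 1.39%. DESeq2 called 1 target, Sesn1 (-0.51, adjusted p = 0.0467). Sesn1 was at 13.3 ± 0.442 CPM fed and 9.33 ± 0.814 CPM fasted, with no overlap (edgeR -0.51 ± 0.13, adjusted p = 0.0695). Bbc3 was at 22.5 ± 2.55 CPM fed and 18.2 ± 1.53 CPM fasted (-0.31 ± 0.15, adjusted p = 0.298), and Trp53inp1 at 184 ± 21.3 and 198 ± 32.6 CPM. Cdkn1a was at 217 ± 18.2 CPM fed and 295 ± 24.0 CPM fasted, and its libraries did not overlap, but the change did not pass (0.45 ± 0.35, adjusted p = 0.547). Without Vps15LKO fasted library b, Ccng1 (-0.52, adjusted p = 0.0215) and Phlda3 (-0.79, adjusted p = 0.03) passed, and without the filter on low counts Cdkn1a did (0.48, adjusted p = 0.0254). Over all genes, 189 rose and 143 fell in this comparison, a count that moved to 542 and 700 without Vps15LKO fasted library b and to 2 and 2 without library a, 3 and 1 without library c, 7 and 8 without Vps15LKO fed library a and 29 and 22 without Vps15LKO fed library c.

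Only Bbc3 differed between the genotypes in its response to fasting, by the interaction term of the fit, where 12.1% of all tested genes passed, 6.35% positive and 5.7% negative. Its interaction was -1.48 ± 0.23 on the log2 scale (adjusted p = 0.000713). PUMA RNA was low in WT fed liver alone, and the other 3 groups lay between 16.4 and 25.5 CPM. Trp53inp1 (-1.25 ± 0.41, adjusted p = 0.0613), Bax (0.55 ± 0.18, adjusted p = 0.0651) and Pmaip1 (1.50 ± 0.52, adjusted p = 0.0743) lay near the threshold without passing. Without WT fed library b, Cdkn1a (-1.30, adjusted p = 0.0201) and Trp53inp1 (-1.79, adjusted p = 0.00238) passed too. Bax passed without WT fed library c (0.65, adjusted p = 0.0447) and Trp53inp1 without WT fasted library a (-1.45, adjusted p = 0.0352). Of the 35 further targets, 7 had a positive and 6 a negative interaction (3 negative without WT fasted library b), led by Gdf15 (3.52 ± 0.32), Ephx1 (-1.68 ± 0.20) and Sesn2 (-1.71 ± 0.21).

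MEF values are the authors' variance-stabilised log2 values, in which a gene with no reads sits at 4.17, and differences of low genes are compressed. Before the targets, the MEF headings were set against Pik3r4 and stress genes that amino acid shortage is known to touch. Pik3r4 was higher under CRE than under GFP headings in basal medium, at 10.13 ± 0.02 against 9.91 ± 0.11 log2 units (difference 0.23 ± 0.05, limma adjusted p = 0.000332), and whole-gene values again cannot check a partial deletion. All 12 ATF4 and CHOP targets, known to be raised by such shortage, were higher under CRE than GFP in basal and in deprived cells, while 12 and 11 of 12 were lower under CRE 1 h and 4 h after methionine was returned. Their summed level in recovered counts, scaled with TMM factors as in liver, was 1530 to 1627 CPM under GFP basal, 1755 to 1901 CPM under GFP deprived, 3524 to 3843 CPM under GFP 1 h and 4196 to 4459 CPM under GFP 4 h. Under CRE it was 2990 to 3212 CPM basal, 3810 to 3856 CPM deprived, 2009 to 2032 CPM at 1 h and 2380 to 2496 CPM at 4 h. Chac1, a glutathione-degrading enzyme of this response, was at 9.29, 10.44, 13.05 and 13.83 log2 units under GFP basal, deprived, 1 h and 4 h and at 12.31, 13.38, 10.25 and 11.50 under CRE. The summed stress genes and Chac1 were thus highest under GFP 4 h, with CRE deprived next by mean Chac1 value, and every MEF result is given by the heading its column carries. Under GFP headings the sum and Chac1 were higher after methionine was returned than in deprived cells, opposite to the known effect of shortage. Whether each heading names its cells correctly was not tested.

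**Figure D4:**
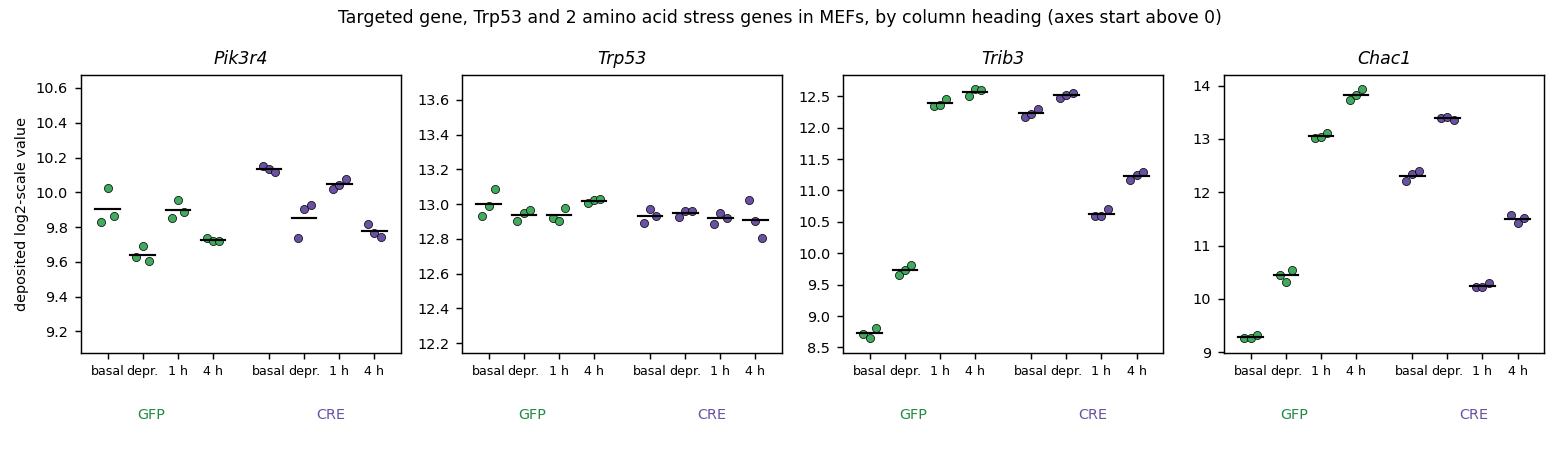
Variance-stabilised log2 values in the 24 MEF libraries for Pik3r4, which encodes Vps15, for Trp53 and for the stress genes Trib3 and Chac1, by column heading. Points are libraries and bars group means; both stress genes are lowest under GFP basal and highest under GFP 4 h.

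Under these headings the p53 targets did not share a single course. Cdkn1a, Trp53inp1, Bbc3 and Mdm2 were higher under CRE than GFP in deprived cells and lower under CRE 1 h and 4 h after methionine was returned, while Phlda3 was higher under CRE at all 4 conditions. In basal cells 5 of 9 tested targets were higher under CRE and 2 lower, where 58.3% of all 13914 tested genes changed, 29.7% higher and 28.6% lower. In deprived cells 6 were higher and 2 lower (62.6% of all genes changed, 32% higher and 30.6% lower). At 1 h 3 were higher and 5 lower (55% of all genes, 26.9% higher and 28.1% lower), and at 4 h 4 were higher and 5 lower (59.8%, 30.8% higher and 29% lower). With 55 to 62.6% of all genes changed in these comparisons, the counts alone set the targets little apart, and the description rests on which targets moved and by how much.

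Cdkn1a showed the widest movement. Under GFP its values were 8.89, 8.93 and 8.76 log2 units in basal cells, 9.51, 9.27 and 9.40 in deprived cells, 10.42, 10.40 and 10.41 at 1 h, and 10.89, 10.84 and 10.91 at 4 h. Under CRE they were 9.77, 9.87 and 9.81 in basal cells, 10.62, 10.74 and 10.66 in deprived cells, 8.37, 8.47 and 8.29 at 1 h, and 9.43, 9.27 and 9.31 at 4 h. The lowest heading was CRE 1 h and the highest GFP 4 h, and only CRE 4 h and GFP deprived, neighbours in that order, overlapped. The CRE minus GFP difference was 0.96 ± 0.06 in basal cells (adjusted p = 3.29e-15) and 1.28 ± 0.06 in deprived cells (adjusted p = 1.56e-18). It was -2.03 ± 0.06 at 1 h (adjusted p = 1.24e-23) and -1.54 ± 0.06 at 4 h (adjusted p = 1.56e-20).

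Trp53inp1 and Bbc3 had CRE minus GFP differences of the same signs as Cdkn1a. Trp53inp1 was at 7.78 ± 0.07 (SD, n = 3) under GFP basal, 8.63 ± 0.15 under GFP deprived, 8.95 ± 0.10 at 1 h and 9.19 ± 0.07 log2 units at 4 h. Under CRE it was at 8.68 ± 0.04, 9.19 ± 0.07, 7.68 ± 0.11 and 8.43 ± 0.03 in the same order. Its CRE minus GFP differences were 0.90, 0.56, -1.26 and -0.76, each with an SE of 0.07 and an adjusted p of at most 4.31e-08. Bbc3 was at 8.26 ± 0.11, 8.36 ± 0.13, 9.19 ± 0.08 and 9.32 ± 0.07 log2 units under GFP and at 8.94 ± 0.13, 9.17 ± 0.07, 7.83 ± 0.13 and 7.95 ± 0.23 under CRE. Its differences were 0.69, 0.81, -1.35 and -1.36, each with an SE of 0.09 and an adjusted p of at most 4.14e-07. The arrest gene Cdkn1a and the death gene PUMA thus shared the signs of these differences, but not every step. From GFP basal to GFP deprived and from CRE 1 h to CRE 4 h, Cdkn1a and Trp53inp1 rose. Bbc3 did not pass in either step (means of 8.26 and 8.36, and of 7.83 and 7.95).

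Mdm2 followed with smaller differences. It was at 10.07 ± 0.07, 10.16 ± 0.02, 10.61 ± 0.09 and 10.82 ± 0.03 log2 units under GFP and at 10.17 ± 0.02, 10.55 ± 0.04, 9.84 ± 0.02 and 9.78 ± 0.06 under CRE. In basal cells the difference of 0.09 ± 0.05 did not pass by limma (adjusted p = 0.0777). The basal difference passed with edgeR on recovered counts (0.11, adjusted p = 0.0461) and by limma without GFP basal 3 (0.13, adjusted p = 0.0291). In deprived cells the difference was 0.39 ± 0.05 (adjusted p = 8.23e-09). It was -0.77 ± 0.05 at 1 h (adjusted p = 1.91e-15) and -1.04 ± 0.05 at 4 h (adjusted p = 6.73e-19). Tnfrsf10b took the same signs within a narrow band, with means from 10.49 to 10.75 log2 units over the 8 headings, with differences of 0.17, 0.13, -0.11 and -0.25. Its deprived and 1 h calls were lost when libraries were shifted to 1 median (adjusted p 0.245 and 0.354) and without single libraries: CRE deprived 1, GFP 1 h 1, GFP 1 h 2 or CRE 1 h 3 (adjusted p 0.0661 to 0.102).

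Ccng1 and Sesn1 ran the other way. Ccng1 was at 10.62 ± 0.07, 10.66 ± 0.02, 10.32 ± 0.04 and 10.23 ± 0.07 log2 units under GFP and at 10.27 ± 0.06, 10.29 ± 0.08, 10.45 ± 0.06 and 10.51 ± 0.06 under CRE. It was lower under CRE in basal (-0.35 ± 0.05, adjusted p = 2.2e-07) and deprived cells (-0.37 ± 0.05) and higher at 4 h (0.27 ± 0.05, adjusted p = 1.51e-05). At 1 h its difference of 0.12 ± 0.05 passed at 0.0331, but not without GFP 1 h library 1 or 3, CRE 1 h library 1 or 2 (adjusted p 0.0597 to 0.149) or with DESeq2 on recovered counts (0.0599). Sesn1 was lower under CRE in basal (-0.23 ± 0.05) and deprived cells (-0.40 ± 0.05, adjusted p = 4.15e-08), did not pass at 1 h (0.03 ± 0.05, adjusted p = 0.666) and was higher at 4 h (0.32 ± 0.05, adjusted p = 2.76e-06). Ccng1 and Cdkn1a, whose windows with a close response element were printed earlier, thus had CRE minus GFP differences of opposite sign at all 4 conditions.

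Phlda3 and Bax showed neither of these orders of signs. Phlda3 was higher under CRE by 0.15 ± 0.06 in basal cells (adjusted p = 0.0196), 0.27 ± 0.06 in deprived cells, 0.41 ± 0.06 at 1 h and 0.68 ± 0.06 at 4 h (adjusted p = 2.93e-12). The basal call was lost with libraries shifted to 1 median (0.08, adjusted p = 0.193) and without GFP basal 1, CRE basal 1 or CRE basal 3 (adjusted p 0.0534 to 0.0935). Bax did not pass in basal (0.05 ± 0.05, adjusted p = 0.409) or deprived cells (0.07 ± 0.05, adjusted p = 0.243) and was higher under CRE by 0.28 ± 0.05 at 1 h and 0.27 ± 0.05 at 4 h. Pmaip1 had 0 or 1 recovered counts in each of the 24 libraries and was not tested. Trp53 had means between 12.91 and 13.02 log2 units over the 8 headings, and passed only at 4 h, where it was lower under CRE by a log2 difference of -0.11 ± 0.04 (adjusted p = 0.0273) with overlapping libraries. Mdm4 was lower under CRE in basal (-0.26 ± 0.05), deprived (-0.31 ± 0.05) and 4 h cells (-0.28 ± 0.05).

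**Figure D5:**
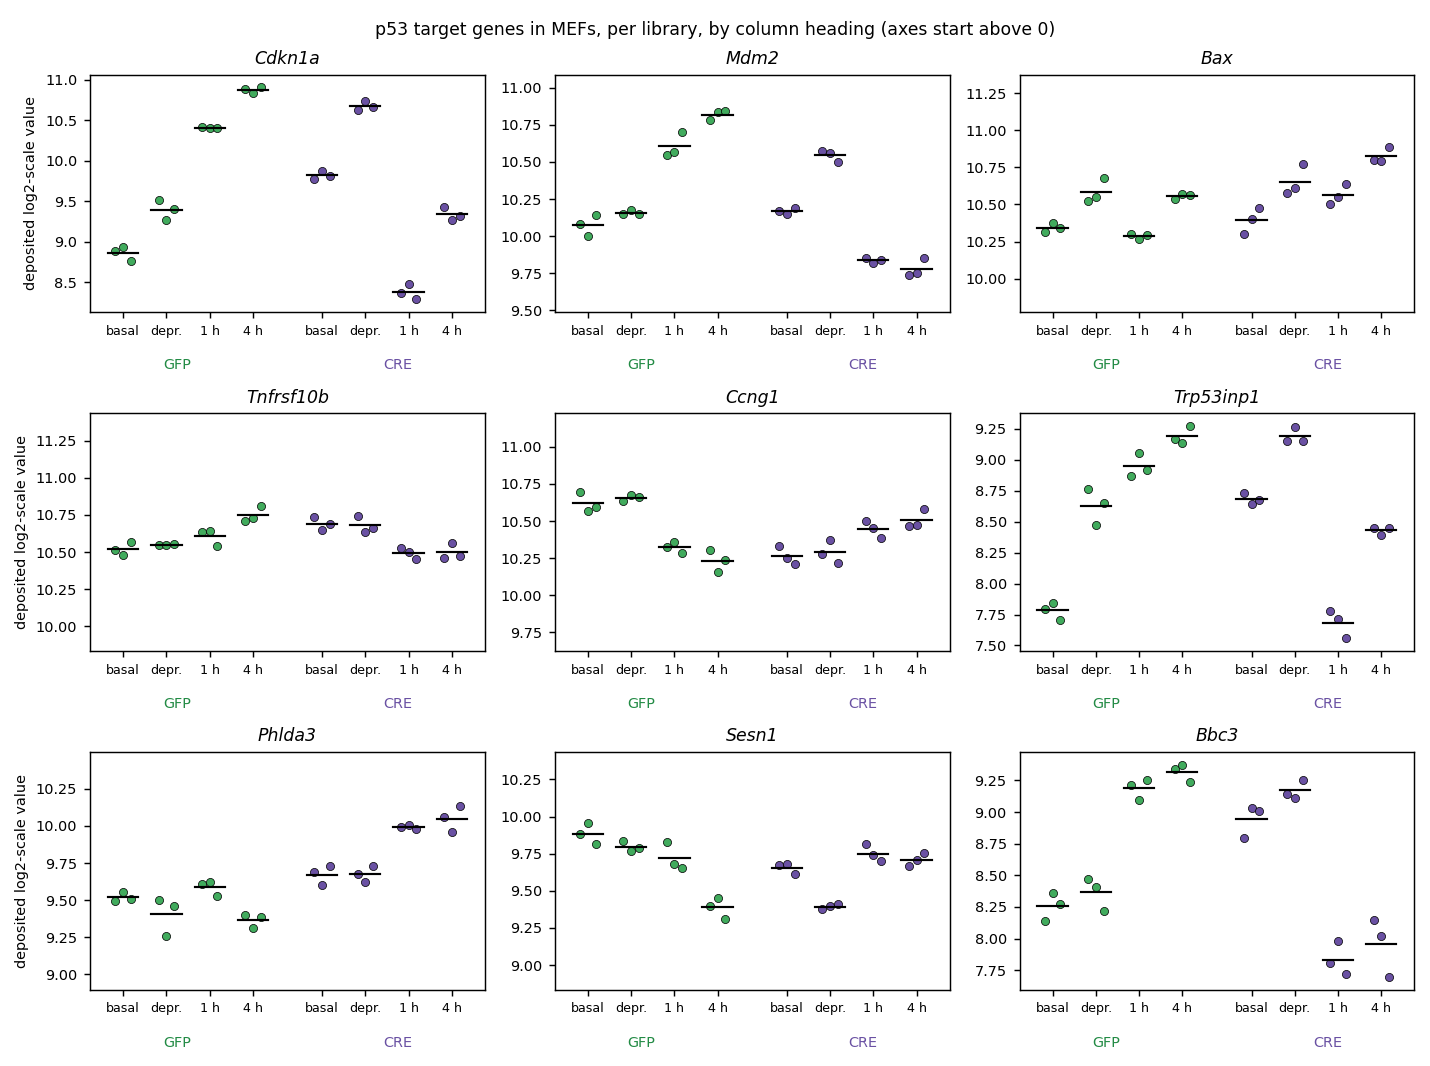
Variance-stabilised log2 values of 9 p53 targets in the 24 MEF libraries by column heading, with points for libraries and bars for group means. Cdkn1a, Trp53inp1, Bbc3 and Mdm2 lie highest under GFP 4 h or close to it and drop from CRE deprived to CRE 1 h.

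From basal to deprived cells, Cdkn1a, Bax and Trp53inp1 rose under both headings. Under GFP the changes were 0.53 ± 0.06, 0.24 ± 0.05 and 0.85 ± 0.07 on the log2 scale, 3 targets higher and none lower, where 23.6% of all tested genes changed, 10% higher and 13.6% lower. Under CRE they were 0.86 ± 0.06, 0.26 ± 0.05 and 0.51 ± 0.07, with Mdm2 also higher (0.38 ± 0.05) and Sesn1 lower (-0.26 ± 0.05), where 28.5% of all genes changed, 15% higher and 13.5% lower. The 2 responses differed by test for Mdm2 (0.29 ± 0.06, adjusted p = 0.00606), Cdkn1a (0.32 ± 0.08, adjusted p = 0.0181) and Trp53inp1 (-0.34 ± 0.10, adjusted p = 0.0478), where 4.78% of all genes passed, 3.23% positive and 1.55% negative. The Cdkn1a call was lost without GFP basal 2, GFP deprived 2, CRE basal 1 or CRE deprived 2 (adjusted p 0.0545 to 0.0803), and without CRE basal 1 only Mdm2 passed. The Trp53inp1 call was lost in 9 fits that left out a library (adjusted p 0.06 to 0.172), without the filter (0.0986) and with no trend or robust fit (0.063).

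After methionine was returned, the headings parted. From deprived to 1 h, Cdkn1a rose by 1.01 ± 0.06 under GFP and fell by 2.30 on the log2 scale under CRE. Bbc3 rose by 0.82 ± 0.09 under GFP and fell by 1.34 under CRE, and Trp53inp1 rose by 0.32 ± 0.07 and fell by 1.51. Under GFP 5 targets were higher and 2 lower, or 4 and 3 with libraries shifted to 1 median (59.5% of all genes changed, 30.7% higher and 28.8% lower). Under CRE 3 were higher and 5 lower (60.1% of all genes, 30% higher and 30.1% lower). From 1 h to 4 h, Cdkn1a rose under both headings, by 0.47 ± 0.06 under GFP and 0.96 ± 0.06 under CRE, and so did Bax (0.27 ± 0.05 and 0.26 ± 0.05) and Trp53inp1 (0.24 ± 0.07 and 0.75 ± 0.07). In that step 5 targets were higher and 2 lower under GFP (36.7% of all genes changed, 17.9% higher and 18.8% lower) and 3 higher and none lower under CRE (25.4%, 13.4% higher and 12% lower). The GFP Trp53inp1 call was lost without GFP 1 h library 1 (adjusted p = 0.0518) or GFP 4 h library 3 (0.0555).

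Against the deprived heading, the 4 h heading had 5 targets higher and 2 lower under GFP (66.1% of all genes changed, 33.3% higher and 32.8% lower). Under CRE it had 4 higher and 5 lower (51.8%, 26% higher and 25.9% lower). Cdkn1a was 1.48 ± 0.06 above its deprived value under GFP and, under CRE, lower by a log2 change of -1.34 ± 0.06. Compared with basal cells, a comparison chosen after seeing the data, Cdkn1a at 1 h was higher by 1.55 ± 0.06 under GFP and differed by -1.44 ± 0.06 under CRE. There 4 targets were higher and 2 lower under GFP (58.8% of all genes changed, 29.2% higher and 29.6% lower), and 3 higher and 5 lower under CRE (48.2%, 23.2% higher and 25% lower). These comparisons share the deprived, the basal or the 1 h libraries with those above. The difference between CRE and GFP at 1 h and at 4 h departed from that in basal cells for all 9 tested targets, 4 positive and 5 negative, and both tests share the basal libraries. Of all genes 64% passed at 1 h (32.3% positive, 31.7% negative) and 66.5% at 4 h (33.7% positive, 32.8% negative).

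Other p53 targets in MEFs were read by the same headings. Of 33 tested, 14 were higher and 10 lower under CRE in basal cells, 16 and 9 in deprived cells. At both 1 h and 4 h 8 were higher and 13 lower. Of all genes 58.3, 62.6, 55 and 59.8% changed in these comparisons. With libraries shifted to 1 median, 11 were higher and 11 lower in basal cells and 12 and 10 in deprived cells. The shifted counts were 10 and 13 at 1 h and 8 and 12 at 4 h. Gadd45a, a stress gene of growth arrest and DNA repair, differed by 1.87, 1.75, -2.63 and -2.02 on the log2 scale at the 4 conditions, Sesn2 by 1.75, 1.62, -2.40 and -2.14, and Plk2, a stress-induced kinase, by 1.64, 2.26, -1.92 and -2.25. Of 17 tested genes for p53 and its regulators, Ppm1d, which encodes a phosphatase that turns p53 signalling off, differed by 0.71, 0.75, -0.80 and -0.85. All 16 mitotic genes were lower under CRE in basal and in deprived cells, and at 1 h 6 were higher (10 with libraries shifted to 1 median) and 1 lower. Their summed level was 3687 to 3988 CPM under GFP basal, 3291 to 3451 CPM under GFP deprived, 2266 to 2550 CPM at 1 h and 2184 to 2221 CPM at 4 h, against 2318 to 2522, 1975 to 2042, 2440 to 2686 and 2267 to 2526 CPM under CRE. The part of growth rate and of the ATF4 and CHOP targets in the p53 target values was not tested.

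The order of the targets by level also differed between WT fed liver and GFP basal MEFs. In GFP basal MEFs, recovered counts gave 38.3 CPM per kb for Bax, 21.4 for Phlda3, 20.9 for Ccng1, 12.6 for Tnfrsf10b, 10.9 for Sesn1, 9.80 for Mdm2, 6.10 for Bbc3, 5.78 for Cdkn1a and 1.37 CPM per kb for Trp53inp1. Cdkn1a, the most abundant of the 10 by group mean in WT fed liver, was thus among the least abundant under GFP basal. Its level varied widely by heading, from 4.03 CPM per kb under CRE 1 h to 25.1 under GFP 4 h. Under GFP 4 h only Bax, at 45.1 CPM per kb, was above it. Tnfrsf10b and Phlda3, scarce in WT liver, were well expressed in GFP basal MEFs. Liver and MEF tables were processed separately, so these levels are set side by side and were not tested.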

How the data were processed

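RNA was measured in 12 liver and 24 MEF libraries. Liver values are raw read counts per gene deposited by the authors, made with HISAT2 and Subread on mm10, per the submitters' processing notes. The deposited MEF values are variance-stabilised values on a log2 scale, made with STAR 2.7.10b and featureCounts on mm10, per the same notes. The sources used here do not state whether counting used strand. Whole reads were recovered from 100% of MEF values within 0.01 of a whole number, giving totals of 19345029 to 21245006, and served edgeR and DESeq2 as alternatives.

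Liver counts were fitted over all 12 libraries with edgeR 4.0.16 (R 4.3.3; TMM factors 0.801 to 1.22, filterByExpr, quasi-likelihood F test), which left 23875 genes. MEF values were fitted over all 24 libraries with limma 3.58.1 (trend, robust) for the 13914 genes with a mean of 1 or more over the value of an unread gene. p-values were adjusted by Benjamini-Hochberg over all tested genes, at a threshold of 0.05. The SE of an edgeR difference is its size over the square root of F. DESeq2 1.42.0, other scaling, other filters, fits of the compared groups alone and leaving out each library were alternatives, and 2 MEF comparisons of 1 h with basal were added after seeing the data. The main edgeR fit was tested on simulated data for Vps15LKO against WT in fed liver. The main limma fit was tested so for CRE against GFP in basal cells. The alternatives and the other comparisons were not tested on simulated data. Named genes are the 10 targets, Trp53, Mdm4, Pik3r4, up to 3 genes of smallest adjusted p in each further list and the 5 most alike genes in each data set. The targets and lists were chosen with earlier results of these data known. Gene symbols and positions come from GENCODE M21 and promoter windows from RefSeq. The level of 1 marker gene is not reported here. Counting error limits genes with few counts, such as Tnfrsf10b in WT liver.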

Additional observations from a re-analysis of the deposited data

Results flagged for a closer look

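In liver, Bbc3 differed between genotypes in its response to fasting (edgeR interaction -1.48, adjusted p = 0.000713). Its levels were 8.25 CPM in WT fed, 18.5 in WT fasted, 22.5 in Vps15LKO fed and 18.2 CPM in Vps15LKO fasted liver. It was the only 1 of the 10 targets to pass, where 12.1% of all tested genes passed.

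In MEFs the difference between CRE and GFP headings departed from its basal value, by the interaction term of the limma fit. In deprived cells Cdkn1a (0.32), Mdm2 (0.29) and Trp53inp1 (-0.34) passed, where 4.78% of all genes passed. With single libraries left out, 1 to 2 targets passed, and the Cdkn1a and Trp53inp1 calls were lost in several of these fits. At 1 h after methionine was returned, Cdkn1a (-2.99), Trp53inp1 (-2.16), Bbc3 (-2.04), Mdm2 (-0.86) and Tnfrsf10b (-0.28) had negative interactions. Ccng1 (0.48), Sesn1 (0.26), Phlda3 (0.25) and Bax (0.22) had positive ones. At 4 h the negative interactions were those of Cdkn1a (-2.50), Bbc3 (-2.05), Trp53inp1 (-1.66), Mdm2 (-1.13) and Tnfrsf10b (-0.42). The positive ones were those of Ccng1 (0.63), Sesn1 (0.55), Phlda3 (0.53) and Bax (0.22). The same 5 and 4 targets thus carried each sign at 1 h and at 4 h, in tests that share the basal libraries. The share of all genes that passed was 64% at 1 h, with 32.3% positive and 31.7% negative. At 4 h it was 66.5%, with 33.7% positive and 32.8% negative, so passing alone sets the targets little apart.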

How the results depend on the processing

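Counts of changed targets stayed within 1.5 times in 143 of 148 alternatives that kept all libraries. The exceptions were the liver interaction, with 3 targets under library totals alone, 3 without the filter and 2 over Ensembl identifiers only, against 1, and fasting in Vps15LKO liver, with 1 target without the filter and 1 with DESeq2, against none. A change of direction was counted only where the main or the alternative fit passed. By that rule directions reversed for 2 genes, in Vps15LKO against WT fasted liver under library totals alone: Sesn1 at 0.40 and Bbc3 at 0.49. The all-gene median shifted by 0.39 in fed and 0.52 in fasted liver under that scaling, and by up to 0.15 in MEFs when libraries were shifted to 1 median.

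Leaving out single libraries gave 8 to 9 changed targets in Vps15LKO against WT fed liver, 6 to 7 in fasted liver, 3 to 4 on fasting in WT (5 with all libraries), 0 to 2 on fasting in Vps15LKO and 1 to 3 for the interaction. In MEFs the range was 6 to 8 for CRE against GFP in basal cells, 7 to 8 in deprived cells, 6 to 7 at 1 h (8 with all libraries), 9 at 4 h, and 1 to 2 for the deprived interaction (3 with all libraries).

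The replicate block in MEFs gave the same count of changed targets in every comparison, such as 7 for CRE against GFP in basal cells, and changed no target's call. The numbers were not taken to pair the samples, since not every same-numbered pair correlated over 0.1, a rule that does not test pairing. The 84 pairs of libraries with the same number had a median correlation of 0.0244 (-0.163 to 0.230), 10 of them over 0.1. The 168 pairs with different numbers had a median of -0.0166, 9 of them over 0.1. Further, 17 of 24 libraries lay closest to their own number. These values are a hint of pairing from the data and not from the design. No paired analysis was possible in liver because its columns carry no replicate number.

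Fasting in Vps15LKO liver changed 332 genes in all, against 21 higher and 6 lower when only its groups were fitted, 435 and 459 with DESeq2 and 836 and 722 without the filter. Depth limits Tnfrsf10b and Pmaip1 in WT liver and Pmaip1 in MEFs.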

Other observations

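Across the 12 liver libraries, the mean standardised profile of the 10 targets was most like that of Adm (r = 0.988), Samd4 (0.988), Maoa (0.986), Serpinb9c (0.985) and Sh2d1b1 (0.984) among 14396 genes, leaving out gene models without a proper name. Adm encodes the vasoactive peptide adrenomedullin and Maoa a monoamine oxidase. In the 24 MEF libraries the mean profile of 9 targets was most like that of Fam110c (0.937), Sox9 (0.937), Tnfaip2 (0.935), Nbr1 (0.933) and Rnf114 (0.933) among 13914 genes. Sox9 encodes a developmental transcription factor and Nbr1 an autophagy receptor. These correlations (Pearson's r) describe libraries that share genotype and treatment.

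The targets also differed in how they tracked their own mean profile. In liver r was 0.974 for Tnfrsf10b, 0.961 for Mdm2, 0.960 for Ccng1, 0.958 for Phlda3 and 0.931 for Bax, but 0.649 for Cdkn1a and 0.195 for Sesn1. In MEFs the highest and lowest were Trp53inp1 at 0.974 and Cdkn1a at 0.944, and Ccng1 at -0.538 and Sesn1 at -0.708. Each mean includes the gene itself.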
